A study of Oryctolagus cuniculus with 16 samples.

Results

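The expression of 10 genes of the neutrophil was examined in the femoral head of rabbits with surgically induced Perthes disease. The genes were taken by their gene symbols from the deposited table. They are *MPO*, *LTF*, *LCN2*, *MMP25*, *S100A8*, *S100A9*, *CSF3R*, *CXCR2*, *CD300LB* and *RASGRP4*, which is 10 of the 20255 genes listed. The Perthes group consisted of 5 wild-type rabbits, operated on at an age of 8 weeks. The surgery was meant to deprive the epiphysis of blood, and combined a severed ligamentum teres with a suture tied around the femoral neck. The control group consisted of 3 rabbits labelled as wild type. The interval between surgery and sampling, the sex of the animals and whether the controls had a sham operation are not given in the sources used here. Each library was taken as a separate rabbit, following the number of animals given by the study and the library codes. The title of control rabbit 3 repeats the replicate number of another control. Total RNA was taken from femoral head tissue, which holds bone, cartilage and marrow.

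Neutrophils are produced in the bone marrow, where the cytokine G-CSF drives their formation and the chemokine CXCL12 retains them. Their granules are filled in sequence during maturation, first the primary (azurophil) granules, then the secondary (specific) and then the tertiary granules. Granule protein transcripts are therefore most abundant in the immature cells of the marrow, whereas chemokine and G-CSF receptors are also expressed by mature cells.

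The libraries of Perthes rabbits 1 to 5 held 27331725, 28469720, 29348018, 29137905 and 29461482 counts. Those of control rabbits 1 to 3 held 27586064, 26757087 and 28783082. Levels are given as CPM, the counts of a gene relative to the library total after TMM scaling, which corrects the totals for differences in composition. All 10 neutrophil genes passed the low-count filter that left 15305 genes for testing. The bone gene *COL1A1*, the most counted marker of the labelled tissue, was at 91235 ± 41942 CPM (n = 5, SD) in Perthes rabbits and 81951 ± 9041 CPM (n = 3, SD) in controls. Perthes rabbit 4 stood apart from the other 7 rabbits, at -78.4 on the second principal component of all genes against -7.51 to 27.5. Results for the neutrophil genes are therefore also given without it. In whole tissue, fewer neutrophils and less neutrophil RNA per cell cannot be told apart. Levels of different genes were not compared with each other, since gene lengths were not used.

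All 10 neutrophil genes had lower levels in every Perthes rabbit than in any control. Summed over the 10 genes, the level was 29.4, 1532, 571, 1513 and 174 CPM in Perthes rabbits 1 to 5, and 18870, 6091 and 5800 CPM in control rabbits 1 to 3. Relative to the control mean, the Perthes rabbits thus held 0.286%, 14.9%, 5.56%, 14.8% and 1.701% of the summed level. Taken gene by gene, the median percentage over the 10 genes was 0.873%, 17.8%, 6.18%, 17.3% and 3.72%. The difference in log2 CPM had the same p for each gene (exact two-sided permutation test, p = 0.0357, the smallest that 5 against 3 rabbits allow). Groups were apart in this direction for 13.9% of all genes tested.

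With the quasi-likelihood test of edgeR and an adjusted p below 0.05 over all genes tested, 7 of the 10 genes were called lower and 0 higher, against 8.86% of all genes called lower. The 7 genes were *RASGRP4*, *MMP25*, *CD300LB*, *CXCR2*, *LCN2*, *S100A8* and *S100A9*, while *LTF*, *CSF3R* and *MPO* missed the threshold. The median log2 fold change of the 10 genes was -3.17, against 0.02 over all genes tested. The 10 genes were chosen with earlier results of these data known, so the comparisons with all genes are descriptions. Of all genes, 3.74% had a log2 fold change of -2 or below, as each of the 10 did. All 10 also had an unadjusted p below 0.05, as had 16.6% of all genes in this direction in edgeR. DESeq2, run as an alternative, called all 10 lower, with 12.5% of all genes called lower. The number of calls in edgeR depended on single rabbits. It was 7 without Perthes rabbit 4, with *CSF3R* in place of *S100A9*, and 1 without Perthes rabbit 3 or Perthes rabbit 5, when *RASGRP4* was left. It was 0 without control rabbit 1 or control rabbit 2, and 4 without control rabbit 3. The calls over all genes moved too, from 1356 lower genes to 646 without Perthes rabbit 3, 550 without Perthes rabbit 5, 184 without control rabbit 1, 0 without control rabbit 2 and 1183 without control rabbit 3. The fold changes kept their direction in each of these fits.

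**Figure D1:**
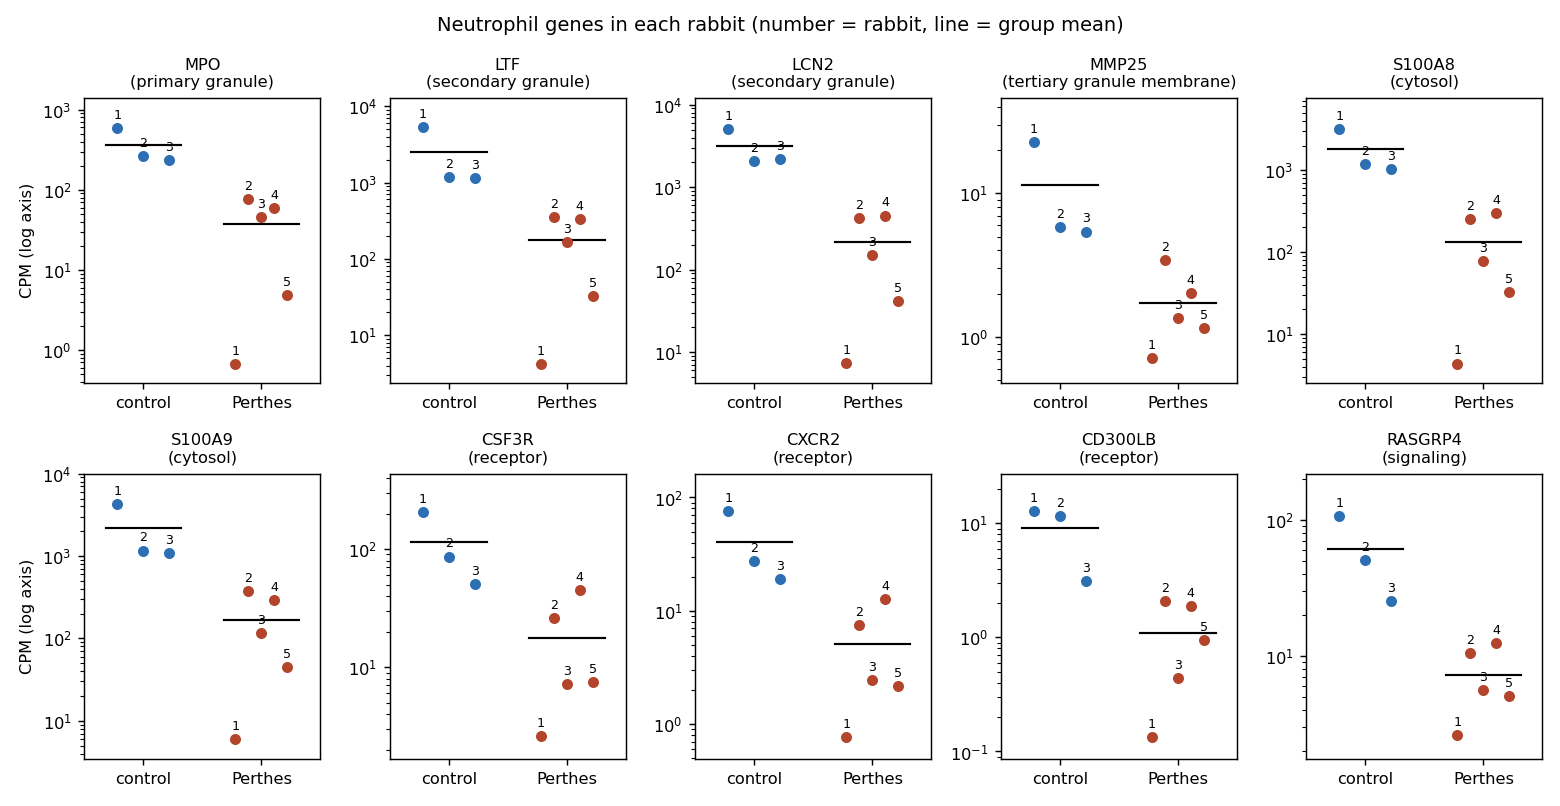
Levels of the 10 neutrophil genes in each rabbit, in CPM on a log axis that differs between panels. Points are rabbits with their numbers and lines are group means. In every panel the 5 Perthes rabbits lie below the 3 controls, Perthes rabbit 1 is the lowest and control rabbit 1 the highest.

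*MPO* (gene 100340692) encodes myeloperoxidase, the peroxidase of primary granules that makes hypochlorous acid. It was at 0.675, 77.4, 45.6, 58.4 and 4.90 CPM in Perthes rabbits 1 to 5, and at 587, 267 and 238 CPM in control rabbits 1 to 3. Rabbits 1 and 5 were far below the other Perthes rabbits, and the highest to lowest ratio within the group was 115. The mean was 37.4 ± 33.6 CPM (n = 5, SD) against 364 ± 194 CPM (n = 3, SD). The log2 fold change was -3.28 (standard error [SE] 1.08, adjusted p = 0.0712 in edgeR), so the gene was not called although the groups did not overlap.

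*LTF* (100348741) encodes lactoferrin, the iron-binding protein of secondary granules. Its levels were 4.22, 359, 166, 335 and 32.5 CPM in Perthes rabbits 1 to 5, and 5274, 1198 and 1161 CPM in control rabbits 1 to 3. Control rabbit 1 lay more than 4-fold above the other controls, and even the lowest control was 3.24 times the highest Perthes rabbit. The log2 fold change was -3.83 (SE 1.14, adjusted p = 0.0524 in edgeR), just outside the threshold. Without control rabbit 1 it was -2.72, with an adjusted p of 0.197 in edgeR. *LCN2* (100352980) encodes lipocalin 2, a secondary granule protein that binds bacterial siderophores and thereby withholds iron. It was at 7.26, 417, 149, 453 and 42.1 CPM in Perthes rabbits 1 to 5, against 5119, 2085 and 2186 CPM in the controls. The distance between the groups was the widest of the 10 genes, with the lowest control at 4.61 times the highest Perthes rabbit. *LCN2* was called lower, with a log2 fold change of -3.87 (SE 1.05, adjusted p = 0.0385 in edgeR).

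*MMP25* (103345677) encodes a metalloproteinase anchored in the membrane of neutrophil granules and of the cell surface. Its levels were low in all rabbits, with 0.709, 3.41, 1.36, 2.04 and 1.16 CPM in Perthes rabbits 1 to 5, and 22.8, 5.82 and 5.42 CPM in control rabbits 1 to 3. The means of 1.73 ± 1.05 CPM (n = 5, SD) and 11.3 ± 9.92 CPM (n = 3, SD) differed by a log2 fold change of -2.71 (SE 0.60, adjusted p = 0.0208 in edgeR). Control rabbit 1 carried much of this difference, and without it the log2 fold change was -1.69. The Perthes rabbits spread less for *MMP25* than for the soluble granule genes among the 10, with a highest to lowest ratio of 4.80.

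*S100A8* (100008985) and *S100A9* (100008704) encode the partners of calprotectin, the calcium and zinc binding complex that makes up much of the neutrophil cytosol. *S100A8* was at 4.36, 253, 77.0, 301 and 32.5 CPM in Perthes rabbits 1 to 5, and at 3222, 1190 and 1037 CPM in the controls. *S100A9* was at 5.98, 376, 116, 292 and 45.5 CPM in the Perthes rabbits, and at 4246, 1168 and 1075 CPM in the controls. Both genes had the same lowest and second lowest Perthes rabbits (1 and 5) and the same highest control (1). They were called lower by nearly the same amount, with log2 fold changes of -3.76 (SE 1.06, adjusted p = 0.0439 in edgeR) and -3.69 (SE 1.05, adjusted p = 0.0453). Without control rabbit 1 they were -3.06 and -2.75 and not called (adjusted p = 0.149 and 0.170 in edgeR). The call for *S100A9* was also lost without Perthes rabbit 4, at a larger log2 fold change of -3.99 and an adjusted p of 0.0508 in edgeR.

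*CSF3R* (100342746) encodes the receptor for G-CSF. It was at 2.60, 26.3, 7.23, 44.8 and 7.49 CPM in Perthes rabbits 1 to 5, and at 206, 86.5 and 50.2 CPM in control rabbits 1 to 3. Here the groups came closest, as control rabbit 3 was 1.12 times Perthes rabbit 4. The log2 fold change was -2.69 (SE 0.83, adjusted p = 0.0571 in edgeR), and without Perthes rabbit 4 it was -3.39, with an adjusted p of 0.0240. Without control rabbit 1 it was -1.95, with an adjusted p of 0.217 in edgeR. *CXCR2* (100328627) encodes a receptor for CXCL8 and related chemokines that releases neutrophils from the marrow and draws them to inflamed tissue. Its levels were 0.777, 7.49, 2.46, 12.8 and 2.18 CPM in the Perthes rabbits, and 75.9, 27.5 and 19.3 CPM in the controls. Perthes rabbit 4 was again the highest of its group. *CXCR2* was called lower, with a log2 fold change of -2.99 (SE 0.80, adjusted p = 0.0370 in edgeR). It was -2.18 without control rabbit 1 and not called (adjusted p = 0.160), and -3.67 without Perthes rabbit 4. Its deposited values were not whole numbers in any of the 8 libraries, whereas those of the other 9 genes were, and the same held for the related receptor gene *CXCR1*. Values that are not whole can come from reads shared with another gene, which was not tested, and the level of *CXCR2* is uncertain to that extent.

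*CD300LB* (103346052) encodes an activating receptor of myeloid cells that signals through adaptor proteins. Its counts were low. In Perthes rabbits 1 to 5 these were 4, 56, 12, 52 and 28, and in control rabbits 1 to 3 they were 358, 331 and 94. As CPM these were 0.135, 2.10, 0.441, 1.89 and 0.953 against 12.8, 11.7 and 3.13. The controls were spaced differently from those of the other genes, since control rabbits 1 and 2 were nearly equal and control rabbit 3 was well below them. The log2 fold change was -3.06 (SE 0.74, adjusted p = 0.0264 in edgeR). *RASGRP4* (100350559) encodes an exchange factor that activates Ras downstream of myeloid receptors. It was at 2.63, 10.6, 5.65, 12.5 and 5.11 CPM in Perthes rabbits 1 to 5, and at 107, 50.4 and 25.3 CPM in control rabbits 1 to 3. The Perthes rabbits lay within a 4.74-fold range, the narrowest of the 10 genes. Its call was the firmest of the 10, with a log2 fold change of -3.06 (SE 0.55, adjusted p = 0.0136 in edgeR), and it was lost only without control rabbit 1 (log2 fold change -2.38, adjusted p = 0.0551 in edgeR) or control rabbit 2 (0.0519) among the fits that left out 1 rabbit.

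**Figure D2:**
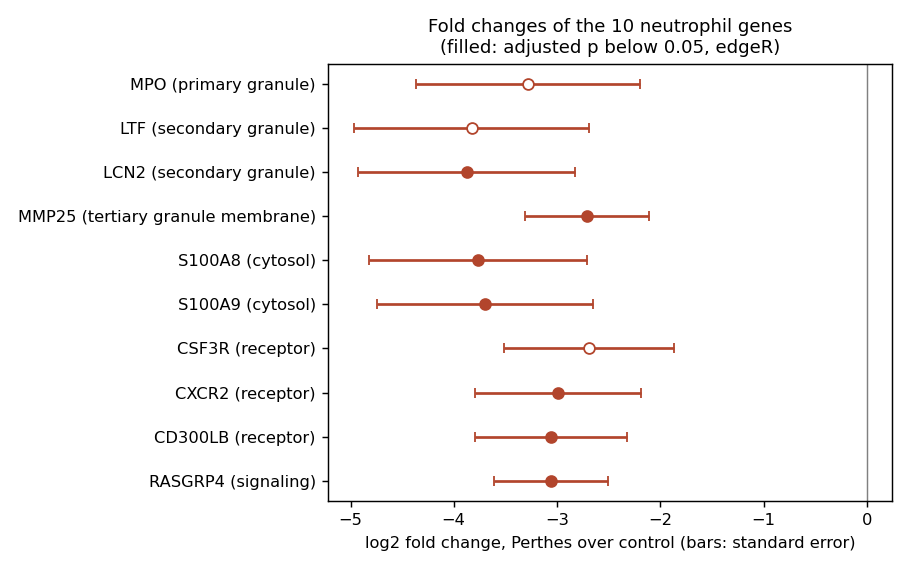
Log2 fold changes of the 10 neutrophil genes, Perthes over control, from edgeR. Bars are standard errors derived from the F statistic of the test. Filled points have an adjusted p below 0.05. All values lie between -3.87 and -2.69, and *MPO*, *LTF* and *CSF3R* are the open points.

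The spread among the Perthes rabbits was not the same for all 10 genes. For *MPO*, *LTF*, *LCN2*, *S100A8* and *S100A9*, which encode soluble granule and cytosolic proteins, Perthes rabbit 1 held between 0.166% and 0.276% of the control mean. For *CSF3R*, *CXCR2*, *CD300LB*, *RASGRP4* and *MMP25* it held between 1.47% and 6.25%. The highest to lowest ratio among the Perthes rabbits was between 62.3 and 115 for the first 5 genes and between 4.74 and 17.2 for the others. For *MMP25* and *CD300LB* the highest counts in a Perthes rabbit were 91 and 56, which limits how large their ratios could be. Among the 3 controls the ratio was between 2.46 and 4.54 for all 10 genes. The split did not extend to all soluble granule proteins, since the ratio among the Perthes rabbits was 20.8 for *PGLYRP1*, 2.87 for *CFP* and 2.88 for *MMP9*, granule genes outside the 10. Also outside the 10, it was 129 for *BPI*, 128 for *CAMP* and 79.1 for *S100A12*, but 31.0 for *TCN1*, 13.3 for *HP* and 3.88 for *CHI3L1*. These ranges are descriptions and were not tested.

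The order of the rabbits was nearly the same for every gene. It was also that of the first principal component of all genes, which held 56.1% of the variance. That component ranked the Perthes rabbits 1, 5, 3, 4 and 2 from the lowest up, followed by control rabbits 3, 2 and 1. *MPO*, *LTF*, *MMP25* and *S100A9* had exactly this order. Perthes rabbit 1 was the lowest for all 10, and Perthes rabbit 5 was the second lowest for 8, the exceptions being *CSF3R* and *CD300LB*, for which rabbit 3 took that place. The highest was Perthes rabbit 2 for *MPO*, *LTF*, *MMP25*, *S100A9* and *CD300LB*, and Perthes rabbit 4 for the other 5 genes. Control rabbit 1 was the highest control for all 10, and control rabbit 3 the lowest for all but *LCN2*. Across the 8 rabbits, the 45 pairs of genes had Pearson correlations of log2 CPM from 0.879 to 0.998 (median 0.959), and of deviations from the group means from 0.726 to 0.997 (median 0.902). These points share the same 8 libraries and are given as a description. The closest pair was *LCN2* with *S100A8*, followed by *CSF3R* with *CXCR2*.

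Ratios of genes within a rabbit do not depend on the library total, and 3 pairs were compared in this way by exact two-sided permutation tests with Benjamini-Hochberg adjustment. The log2 ratio of *S100A8* to *S100A9* was -0.41 ± 0.26 (n = 5, SD) in Perthes rabbits and -0.14 ± 0.23 (n = 3, SD) in controls, a difference of -0.27 with overlapping groups that did not pass the test (exact p = 0.214, adjusted p = 0.321). The log2 ratio of the secondary granule gene *LTF* to the primary granule gene *MPO* was 2.37 ± 0.33 (n = 5, SD) against 2.54 ± 0.55 (n = 3, SD), a difference of -0.18 (exact p = 0.571, adjusted p = 0.571). Neither pair was shown to change by unequal amounts.

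The log2 ratio of *LCN2* to *CSF3R*, a granule protein against a receptor, was 1.46, 3.98, 4.35, 3.34 and 2.48 in Perthes rabbits 1 to 5, and 4.64, 4.59 and 5.44 in control rabbits 1 to 3. It was lower in each Perthes rabbit than in each control, by a mean of -1.77. The exact p of 0.0357 is the smallest that the design allows, and after adjustment over the 3 pairs it was 0.107 (permutation test), so the difference did not pass the correction. Perthes rabbits 1 and 5, which had the lowest neutrophil levels, also had the lowest ratios. Both genes of the ratio are part of those levels, so these orders are not independent. With 1 rabbit left out, the difference lay between -1.35, without Perthes rabbit 1, and -2.08, without Perthes rabbit 3.

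The 10 genes were set against other genes of the neutrophil, in 8 lists of granule, cytosol, receptor, signaling, transcription factor and ligand genes. Outside the 10, these lists name 75 genes, of which 48 were found by symbol and 46 were tested. The lists were likewise chosen with earlier results of these data known. Of the 46, 12 were called lower, 3 higher and 31 neither way in edgeR, against 8.86% lower and 6.21% higher among all genes tested. Their median log2 fold change was -0.77, and the groups were apart in the lower direction for 17 of the 46, against 13.9% of all genes tested. The 12 became 7 without Perthes rabbit 3, 6 without Perthes rabbit 5 and 0 without control rabbit 1 or control rabbit 2, and the 3 higher genes became 1 without Perthes rabbit 3 or control rabbit 3 and 0 without control rabbit 2. In the whole table, lower calls numbered 646 without Perthes rabbit 3, 550 without Perthes rabbit 5 and 184 without control rabbit 1. Higher calls there numbered 385 without Perthes rabbit 3 and 695 without control rabbit 3. Without control rabbit 2, 0 genes of the whole table were called in either direction. Without Perthes rabbit 4, 16 of the neutrophil genes outside the 10 were called lower and 3 higher, against 1423 and 1267 in the whole table.

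**Figure D3:**
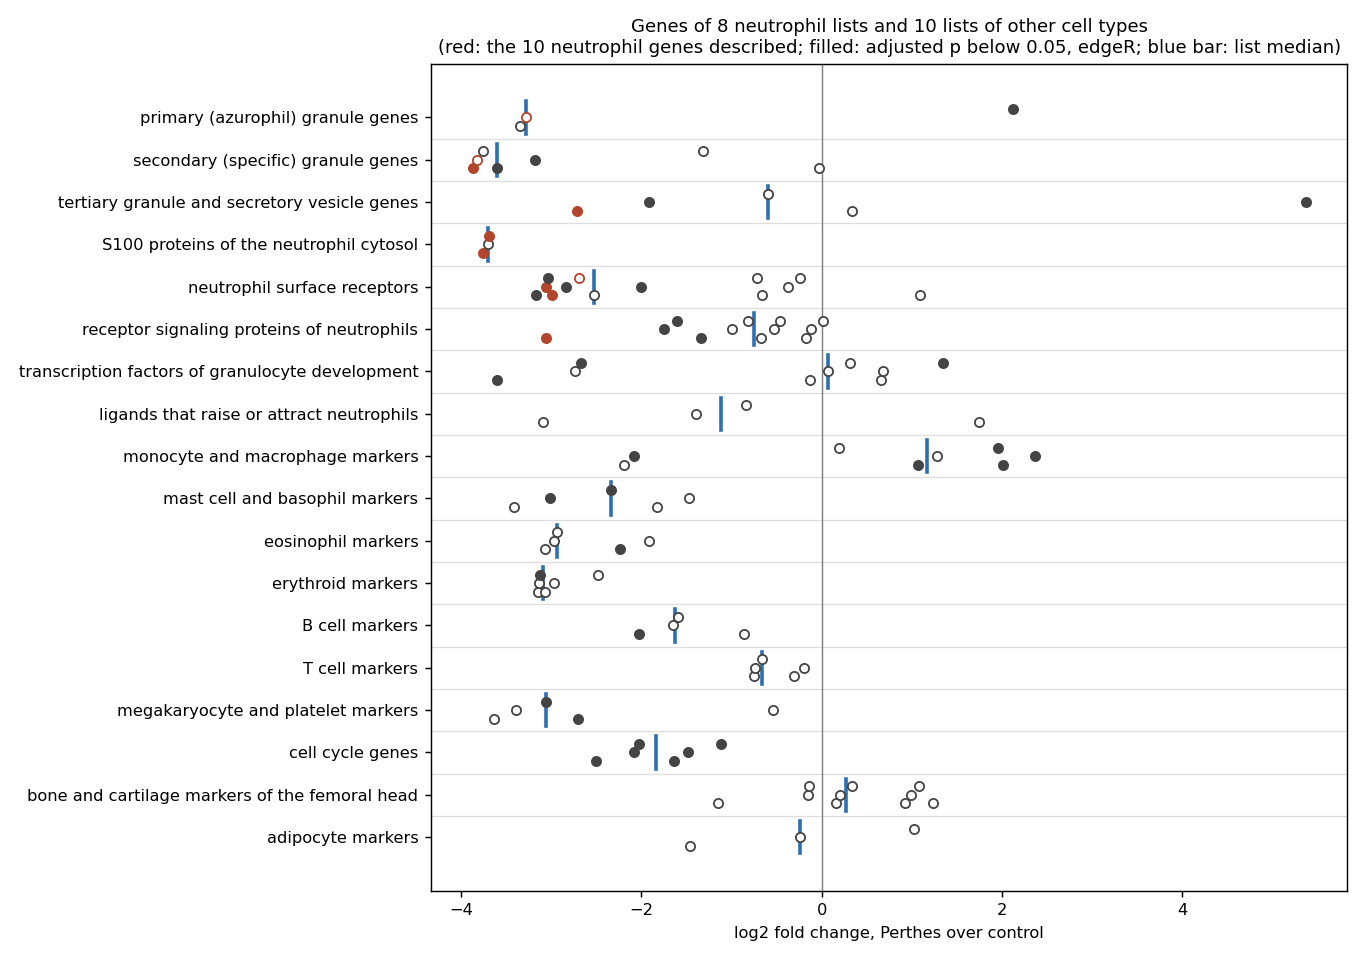
Log2 fold changes, Perthes over control, of the tested genes of 8 neutrophil lists and 10 lists of other cell types. Red points are the 10 neutrophil genes described, filled points have an adjusted p below 0.05 in edgeR, and blue bars are list medians. Medians, which include the red points, lie below -3 for the primary granule, secondary granule, cytosol, erythroid and megakaryocyte lists, and the primary granule median outside the red point is -0.61. Those of the signaling and transcription factor lists lie between -1 and 1, and the macrophage median above 1.

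Among primary granule genes, 3 of 13 were found by symbol. *BPI*, an antibacterial protein that binds endotoxin, was the most counted, at 93.4 ± 89.1 CPM (n = 5, SD) in Perthes rabbits and 948 ± 524 CPM (n = 3, SD) in controls. Its groups did not overlap, but its log2 fold change of -3.34 had an adjusted p of 0.0772 in edgeR. *CTSC*, the protease that activates granule serine proteases and that macrophages and other cells also make, went the other way. It was at 389, 203, 243, 67.9 and 362 CPM in Perthes rabbits 1 to 5 and between 54.3 and 60.8 CPM in the controls, and was called higher with a log2 fold change of 2.12 (SE 0.50, adjusted p = 0.0250 in edgeR). Perthes rabbit 1, the lowest for *MPO*, was the highest for *CTSC*.

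Of the secondary granule list, 7 of 12 genes were tested, and 3 were called lower with a list median of -3.60. Besides *LCN2* these were *PGLYRP1*, which binds bacterial peptidoglycan, and *TCN1*, which binds vitamin B12. *PGLYRP1* was at 29.1 ± 24.8 CPM (n = 5, SD) against 352 ± 285 CPM (n = 3, SD), a log2 fold change of -3.60 (SE 0.86, adjusted p = 0.0258 in edgeR), and *TCN1* had a log2 fold change of -3.18 (adjusted p = 0.0450). *CAMP*, the cathelicidin precursor, was at 141 ± 131 CPM (n = 5, SD) against 1910 ± 1531 CPM (n = 3, SD) and had groups apart, but missed the threshold at -3.76 (adjusted p = 0.0563 in edgeR). *LTF*, given above, was close to it, and the median of the 5 tested genes outside the 10 was -3.18. Not all genes of the list followed, as the haptoglobin gene *HP* was at -1.32 (adjusted p = 0.263 in edgeR) and *CHI3L1*, a chitinase-like protein also made by cartilage cells, at -0.03 (adjusted p = 0.970), both with overlapping groups. The remaining cytosolic S100 gene, *S100A12*, missed it in the same way at -3.70 (adjusted p = 0.0536).

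Tertiary granule and secretory vesicle genes did not share a direction. Of the 5 tested, *MMP25* and the complement regulator properdin, *CFP* (log2 fold change -1.92, adjusted p = 0.0176 in edgeR), were called lower. *ARG1*, the arginine-degrading enzyme that human neutrophils store and macrophages of some species express, rose from 0.291 ± 0.153 CPM (n = 3, SD) to 12.2 ± 7.22 CPM (n = 5, SD), a log2 fold change of 5.37 (SE 0.81, adjusted p = 0.0118 in edgeR). *MMP9*, gelatinase B, which osteoclasts also make in quantity, was the most counted of the list, at 1131 ± 368 CPM (n = 5, SD) against 896 ± 273 CPM (n = 3, SD). Its log2 fold change of 0.34 was not called (adjusted p = 0.558 in edgeR), and its groups overlapped.

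Of the 13 surface receptor genes tested, 6 were called lower and 0 higher, with a list median of -2.53. Without *CSF3R*, *CXCR2* and *CD300LB*, 4 of 10 were called lower, with a median of -1.36. Outside the 10 genes these included *FPR1*, which senses formylated bacterial peptides, *LTB4R*, the leukotriene B4 receptor, and *CXCR1*, the close relative of *CXCR2*. *FPR1* was at 1.52, 6.78, 3.64, 8.44 and 2.93 CPM in Perthes rabbits 1 to 5 and at 76.0, 27.7 and 21.9 CPM in the controls, again with rabbit 1 lowest in its group and control rabbit 1 highest. Its log2 fold change was -3.17 (adjusted p = 0.0136 in edgeR) and that of *LTB4R* -3.04 (adjusted p = 0.0158). *CXCR1* had a smaller change of -2.001 (adjusted p = 0.0368 in edgeR), its groups overlapped, and its deposited values were not whole numbers either. *FPR2* was not called at -2.53 (adjusted p = 0.0511 in edgeR). The most counted receptor gene, *ITGB2*, the beta subunit of leukocyte integrins, which all leukocytes carry, was at 448 ± 168 CPM (n = 5, SD) against 580 ± 413 CPM (n = 3, SD) and was not called (-0.37, adjusted p = 0.624).

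Of 12 signaling genes, 4 were called lower and 0 higher, with a median of -0.75, or -0.67 without *RASGRP4*. After *RASGRP4* these were the Src family kinase gene *FGR* (-1.75, adjusted p = 0.0156 in edgeR), the phosphoinositide 3-kinase gamma gene *PIK3CG* (-1.60, adjusted p = 0.0139) and the small GTPase gene *RAC2* (-1.34, adjusted p = 0.0236). *STAT3*, the most counted and widely expressed, was at 232 ± 38.5 CPM (n = 5, SD) against 229 ± 51.8 CPM (n = 3, SD), a log2 fold change of 0.02 (adjusted p = 0.959 in edgeR) whose sign turned with library totals alone.

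Among 9 transcription factor genes, the factor required for secondary granule genes, *CEBPE*, and the repressor required for granulocyte formation, *GFI1*, were called lower. *CEBPE* was at 0.473, 7.04, 2.39, 5.75 and 0.783 CPM in Perthes rabbits 1 to 5 and at 72.4, 28.6 and 18.5 CPM in the controls, in the same order of rabbits as *LTF*. Its log2 fold change was -3.60 (SE 0.82, adjusted p = 0.0222 in edgeR), and that of *GFI1* was -2.67 (adjusted p = 0.0152). *MYB*, the factor of early progenitors, had groups apart at 6.33 ± 5.99 CPM (n = 5, SD) against 42.1 ± 8.66 CPM (n = 3, SD), with a log2 fold change of -2.73 (adjusted p = 0.0609 in edgeR). *CEBPB*, the factor of emergency granulocyte formation and of macrophages, was called higher, from 12.8 ± 5.49 CPM (n = 3, SD) to 32.7 ± 7.20 CPM (n = 5, SD), with a log2 fold change of 1.35 (adjusted p = 0.0202 in edgeR). *CBFB*, the most counted of the list, was not called (0.66, adjusted p = 0.295).

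Of the ligands, 4 of 12 were tested and 0 were called in edgeR, in either direction. The lower calls became 2 without Perthes rabbit 2, and 1 without Perthes rabbit 1, without Perthes rabbit 4 or with library totals alone. Those fits called 1628, 1198, 1423 and 1705 genes lower in the whole table. *CXCL12*, the most counted, was at 88.9, 467, 178, 96.1 and 72.6 CPM in Perthes rabbits 1 to 5 and at 462, 601 and 359 CPM in the controls, and its log2 fold change of -1.39 was not called (adjusted p = 0.136). *CXCL8*, the main ligand of *CXCR2*, rested on 1 animal in the Perthes group, as rabbit 4 held 87.1% of the Perthes counts. It was at 201 CPM there, between 2.68 and 14.9 CPM in the other Perthes rabbits and at 23.5, 11.2 and 6.05 CPM in the controls. Its log2 fold change of 1.75 was not called (adjusted p = 0.428 in edgeR), and it was -0.93 without Perthes rabbit 4. *IL1B*, an inflammatory cytokine that raises neutrophil output, also had most of its Perthes counts, 76.3%, in rabbit 4. It was at 41.4 CPM there, between 1.76 and 5.32 CPM in the other Perthes rabbits and at 31.8, 15.7 and 10.6 CPM in the controls. Its log2 fold change of -0.84 was not called (adjusted p = 0.595 in edgeR). *PPBP*, a platelet chemokine that binds *CXCR2*, had groups apart and a log2 fold change of -3.09 (adjusted p = 0.0525 in edgeR).

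The 10 genes outside those described whose log2 CPM followed the mean pattern of the neutrophil genes most closely over the 8 rabbits were *PGLYRP1* (r = 0.999), *PAQR5*, *E2F1*, *RETN*, *CEACAM1*, *S100A12*, *RAB37*, *NLRP12*, *CDC45* and *ARHGAP33* (r = 0.993). For deviations from the group means their correlations were between 0.980 and 0.997. *RETN*, which encodes resistin, had the largest change of these, from 14.5 to 0.787 CPM in the mean (log2 fold change -4.21, adjusted p = 0.0202 in edgeR). *PAQR5*, *CEACAM1*, *RAB37* and *NLRP12* changed by -3.45 to -3.33. The cell cycle genes *E2F1* and *CDC45* had correlations of 0.997 and 0.993 with smaller changes, of -1.34 (adjusted p = 0.0341 in edgeR) and -1.37 (adjusted p = 0.0309).

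Markers of other cell types moved as well. Of 6 erythroid markers, whose most counted gene was the anion exchanger *SLC4A1*, all had groups apart in the lower direction, as had 13.9% of all genes, but 1 was called lower in edgeR and 5 were not, *SLC4A1* with an adjusted p of 0.114. The 1 call became 6 without Perthes rabbit 2 and 0 without any other single rabbit. Their summed level was 28.5, 1852, 336, 373 and 66.7 CPM in Perthes rabbits 1 to 5 and 4645, 4507 and 3909 CPM in the controls. The list median of -3.10 was close to that of the neutrophil genes, and Perthes rabbits 1 and 5 were again the lowest. The controls, which differed by more than 3-fold in the summed neutrophil level, were within a narrow range in the erythroid one. Perthes rabbits 2 and 4, nearly equal in the summed neutrophil level, held 42.5% and 8.57% of the control mean of the erythroid one.

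Eosinophil markers, led by the granule protein gene *PRG2*, had a median of -2.93 over 5 genes, of which 4 were not called in edgeR, *PRG2* with an adjusted p of 0.139. The other, *CCR3*, was called lower (-2.23, adjusted p = 0.0423). Summed, they were at 1.86, 374, 52.4, 63.7 and 10.3 CPM in Perthes rabbits 1 to 5 and 1255, 626 and 495 CPM in the controls, so the same control was highest as for the neutrophil genes. Mast cell and basophil markers, led by *HDC*, were at 6.65, 61.1, 22.4, 24.8 and 11.7 CPM against 208, 113 and 78.0 CPM, and 2 of 5 were called lower (*FCER1A* at -3.02 and *GATA2* at -2.34). Megakaryocyte markers had a median of -3.05, with *ITGA2B* among those called lower and *GP9* and *GP1BA* at 0 counts in Perthes rabbit 1. Their most counted gene, *ITGB3*, which osteoclasts also express, was not called (-0.54, adjusted p = 0.318 in edgeR). All 6 cell cycle genes were called lower with a median of -1.83, *MKI67* at -2.51 (adjusted p = 0.0133 in edgeR), *AURKB* at -2.08 and *BUB1* at -2.03. The calls in these 4 lists became 0 without control rabbit 2, and 0 without control rabbit 1 save for 1 cell cycle gene, in fits that called 0 and 184 genes lower in the whole table.

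The lymphocyte markers were few in counts. Of 4 B cell markers, 1 was called lower (*MS4A1*, -2.03, adjusted p = 0.04999 in edgeR), and *CD79B* was the most counted. Of 5 T cell markers, led by *CD5*, 0 were called, with a median of -0.67.

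Monocyte and macrophage markers, of the lineage closest to the neutrophil, were mixed, with a median of 1.17. Of 8 tested, 4 were called higher in edgeR, namely the endotoxin co-receptor *CD14* (2.37, adjusted p = 0.0397), *CD68* (2.02, adjusted p = 0.0165), the mannose receptor *MRC1* (1.96, adjusted p = 0.0454) and the most counted, the M-CSF receptor *CSF1R* (1.07, adjusted p = 0.0326). The groups of *CD14* and *MRC1* overlapped. The complement gene *C1QC* was called lower (-2.09, adjusted p = 0.0133 in edgeR), and 3 were not called. The 4 higher calls became 2 with library totals alone, 1 without Perthes rabbit 1, Perthes rabbit 3, Perthes rabbit 5 or control rabbit 3, and 0 without control rabbit 1 or control rabbit 2. Summed, the macrophage markers were at 1683, 957, 1292, 478 and 1593 CPM in Perthes rabbits 1 to 5 and 654, 561 and 503 CPM in the controls. Perthes rabbits 1 and 5, lowest for the neutrophil genes, were the highest for these, and Perthes rabbit 4 was the lowest. Bone and cartilage markers (0 of 10 called, median 0.27) and adipocyte markers (0 of 3 called, most counted *ADIPOQ*, median -0.24) had no gene past the threshold in edgeR. The part that changes in these other cell types play in the levels of the neutrophil genes was not tested.

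**Figure D4:**
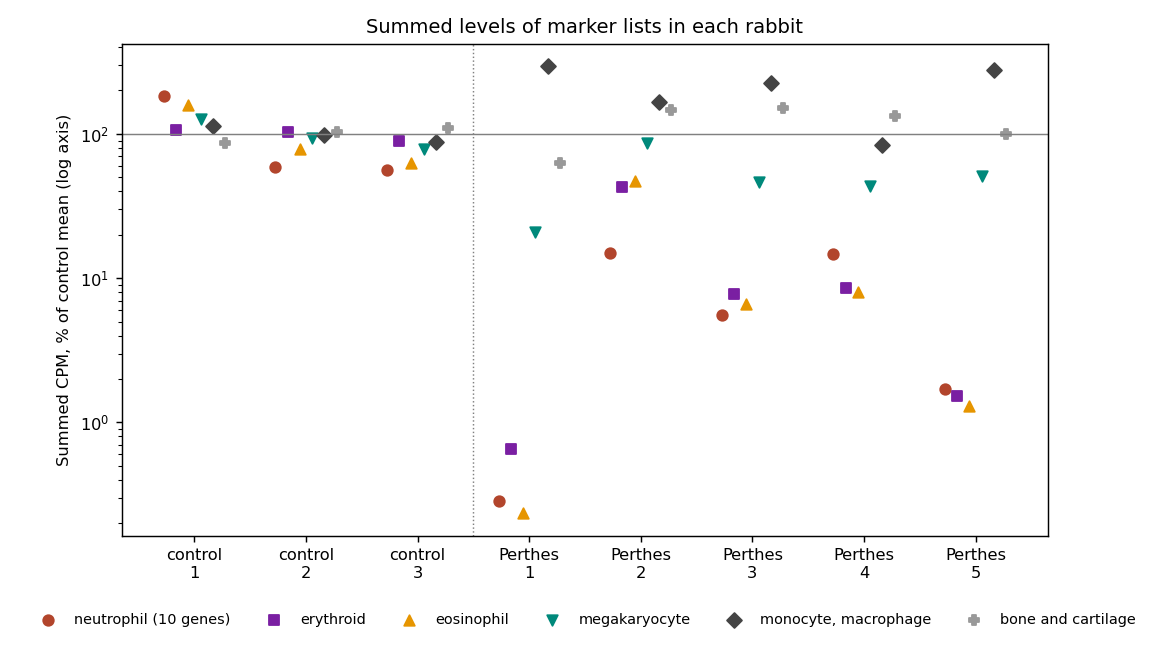
Summed CPM of the 10 neutrophil genes and of 5 marker lists in each rabbit, as a percentage of the control mean on a log axis. The grey line marks 100% and the dotted line separates controls from Perthes rabbits. The megakaryocyte sum is mostly *ITGB3*, which osteoclasts also express, at 131 of 137 CPM in Perthes rabbit 1. Neutrophil, erythroid and eosinophil sums are lowest in Perthes rabbits 1 and 5, at 0.286% and 1.701% for the neutrophil genes, while the macrophage sums of these rabbits are the highest, at 294% and 278%.

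In the gene ontology annotation deposited with the table, 8 of the 10 neutrophil genes carry a biological process. The term shared by most is the innate immune response, with *LCN2*, *S100A8* and *S100A9*. *S100A8* and *S100A9* also share neutrophil chemotaxis and neutrophil aggregation, and *LTF* and *S100A9* the antimicrobial humoral response. In the RefSeq gene table of mOryCun1.1, an assembly other than that of the counts, *S100A8* and *S100A9* lie close together on the same chromosome, with the gene of *S100A12* between them.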

How the data were processed

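Total RNA-seq libraries of 8 rabbits were analysed. The small RNA libraries were not used here. The authors depleted ribosomal RNA, prepared directional libraries, removed poor reads with SOAPnuke and mapped the rest with HISAT2 2.0.4. RSEM 1.1.17 and HTSeq 1.99.2 are named for the counting. The values deposited are expected counts without normalization, in which the authors' tool can split a read between candidate genes. They were rounded to whole numbers. Whether the counting used strand is not given in the sources used here. Another 8 columns of per-sample values repeat those used and were left out. The replicate number of control rabbit 3 is that of its code, since its title repeats the number of another control. Library totals were between 26757087 and 29461482 counts, and rabbits of the same group differed with a common biological coefficient of variation of 0.361. Relative counting error is largest for genes with few counts, such as *CD300LB*.

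Counts were scaled with TMM, filtered with filterByExpr and tested by quasi-likelihood in edgeR 4.0.16 (R 4.3.3). P-values were adjusted by the Benjamini-Hochberg method over 15305 genes, with a threshold of 0.05. Single values were compared by exact permutation tests over the 56 divisions of the rabbits, in scipy 1.17.1. Log2 CPM used a prior count of 2. The code was checked on simulated counts. The neutrophil genes and the gene lists were chosen with earlier results of these data known. Named from each list were the gene with the highest mean CPM and up to 3 called genes in each direction with the largest change, and besides them the 10 genes most correlated with the mean pattern. The other neutrophil list genes that were called or had groups apart, and *CXCL8*, *IL1B*, *HP* and *CHI3L1*, were named after their values were seen. Some genes of the lists are not reported here by name. Gene names are those of the table, and 9 of the 10 gene identifiers, all but that of *MMP25*, were also found in the RefSeq annotation of mOryCun1.1, another assembly. Promoter motifs and levels per length were planned and not run, as no sequences were used. Alternatives were DESeq2 1.42.0, other scalings and filters, other thresholds, a block for the replicate number, and fits that left out 1 rabbit.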

Additional observations from a re-analysis of the deposited data

Results flagged for a closer look

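Of 60 genes whose 5 Perthes values were checked for a rabbit far from the others, 1 stood out. For *MMP9*, the lowest rabbit's gap to its neighbour made up 0.864 of the range of log2 CPM in the group, above the limit of 0.71 for 5 samples. That rabbit was Perthes rabbit 1, at 483 CPM against 1205 CPM or more in the other Perthes rabbits, and it was also the lowest for the 10 neutrophil genes. Chance passes the limit of 0.71 in about 1 of 20 groups, so some flags can be expected among 60 genes. No test was made of the source of this gap.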

How the results depend on the processing

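Each of the 10 neutrophil genes had a lower level in Perthes rabbits in every fit, with 0 called higher in any. Of their 139 fold changes under alternatives, 60 kept the call, 33 stayed uncalled, 9 gained it, 37 lost it and 0 reversed. The 7 calls became 0 at the thresholds of the study (log2 fold change beyond 2 and adjusted p below 1e-05) in edgeR, 1 (*RASGRP4*) at these thresholds in DESeq2, and 0 to 9 with 1 rabbit left out. Of all 15305 genes, 0 passed these thresholds in edgeR in either direction, and 95 lower and 105 higher in DESeq2. Without control rabbit 2, 10 of the 10 had an unadjusted p below 0.05 in edgeR, as had 2098 lower genes of 15594, of which 0 were called. Without control rabbit 1 it was 8 of the 10 and 2038 of 15632, of which 184 were called. The 12 other neutrophil genes called lower and the 3 called higher became 0 and 0 at the thresholds of the study in edgeR, 2 and 1 in DESeq2, and 0 to 16 and 0 to 3 with 1 rabbit left out. With library totals alone, 1705 genes were called lower and 678 higher, against 1356 and 951 with TMM, and DESeq2 called 1916 and 1720. Genes found by description, added after the data were seen, made the 12 into 14. The DESeq2 fit at the thresholds of the study was likewise added after the data were seen.

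The replicate number as a block left 0 of the 10 neutrophil genes called in edgeR, with 7 at an unadjusted p below 0.05, and 0 other neutrophil genes lower and 0 higher. Over all genes 0 were then called, with 1648 lower at an unadjusted p below 0.05. Deviations of rabbits with the same number had correlations of -0.317, 0.161 and -0.238, so the numbers were not taken to pair the rabbits.

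Among 61 other genes followed, 7 turned in direction, none of the 37 called in edgeR. *STAT3* was at -0.072 with library totals alone, -0.064 with the block and -0.10 to 0.22 with 1 rabbit left out. *CXCL8* was at -1.45 with the block and -0.93 to 2.41 with 1 left out. With 1 left out, *CD5* was between -0.47 and 0.32, *CHI3L1* between -0.37 and 0.85, *ADIPOQ* between -1.16 and 0.10, *ITGB2* between -0.70 and 0.38 and *COL1A1* between -0.070 and 0.33. The log2 ratios of *S100A8* to *S100A9* and of *LCN2* to *CSF3R* kept their sign, and that of *LTF* to *MPO*, which was not called, was 0.14 without control rabbit 1. The causes were not tested. Relative counting error is larger for genes near 1 CPM, such as *CD300LB* with 4 counts in Perthes rabbit 1. The SE of *CD300LB*, 0.74, was still smaller than that of *LCN2*, 1.05.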

Other observations

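Several neutrophil genes are listed under rabbit descriptions and not under the symbols searched, and were found after the values were seen. The defensin genes defensin NP-3a and defensin NP-4, peptides of primary granules, had log2 fold changes of -3.54 (adjusted p = 0.0575 in edgeR) and -3.31 (adjusted p = 0.0676), and corticostatin-6, of the same family, -3.23 (adjusted p = 0.0798). Corticostatin-6 was at 3.99, 515, 206, 243 and 26.6 CPM in Perthes rabbits 1 to 5 and at 2955, 1330 and 1319 CPM in the controls. These genes have close copies, so their counts are uncertain to the extent that reads were shared. The gene described as neutrophil collagenase, a secondary granule protease, was at 6.09 ± 6.29 CPM (n = 5, SD) against 75.2 ± 32.2 CPM (n = 3, SD), a log2 fold change of -3.63 (adjusted p = 0.0343 in edgeR). Of 2 genes described as lysozyme C, which macrophages also make, 1 was called lower (-1.50, adjusted p = 0.0357 in edgeR, with overlapping groups) and the other was at -1.41 (adjusted p = 0.0692). Integrin alpha-M, the partner of *ITGB2* on myeloid cells, was at -0.78 (adjusted p = 0.289 in edgeR), and its groups overlapped.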
